A study of Mus musculus with 6 samples.

Results

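The adhesion G protein-coupled receptors examined here are 9 genes of the latrophilin (Adgrl1, Adgrl2, Adgrl3), brain angiogenesis inhibitor (Adgrb1, Adgrb2, Adgrb3), Adgra3, Adgrf4 and Adgrg1 branches of the family. Each gene was represented by the brightest array row annotated with its symbol alone. This gave 8 of the 9 genes, and Adgra3 was not analysed here because no annotated row carried its name. The 8 rows are part of 17213 gene-level rows, called transcript clusters, and no filter on dim rows was applied. Adgrf4 and Adgrg1 led to the choice of this family: it was selected on their signal difference between PTB shRNA and empty vector, among the largest increases in these data, so their differences are given as a description and without a test.

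RNA came from N2A cells, an established mouse neuroblastoma line, and was hybridised to Affymetrix mouse exon arrays. One group of 3 arrays came from cells treated with an empty vector and the other group of 3 arrays from cells treated with a short hairpin RNA (shRNA) against PTB. PTB, encoded by Ptbp1, binds RNA and is known mainly as a repressor of exons. The labels call the arrays of each group biological replicates and give a loss of PTB protein close to 80%. No control hairpin is among the samples analysed here, so loss of PTB and other effects of a hairpin cannot be told apart. In these bulk samples, more cells of a kind and more RNA per cell cannot be told apart either.

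Adhesion receptors pair a long extracellular region, which binds matrix or neighbouring cells, with the 7-helix membrane part shared by all G protein-coupled receptors. Most are cut during synthesis by their own GAIN domain, and the short stalk left on the membrane part can act as a tethered agonist. Latrophilins and brain angiogenesis inhibitors are best known at neuronal synapses, where their partners include teneurins, FLRT proteins, neurexins and C1q-like proteins. Adgrg1, also called GPR56, is known for its role in cortical development and in myelin-forming cells.

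The stretches of 250 bases before the RefSeq transcription starts (GRCm38.p6) are shown for the 4 receptors with higher signal on every PTB shRNA array and, for contrast, for Adgrl1. They are shown because they differ in CpG content, and capitals mark each CpG. The table held at least 1 start for 7 of the 8 measured receptors, all but Adgrb1. The Adgrf4 stretch lies at chr17:42692285-42692534 on the minus strand, that of Adgrl2 at chr3:148954636-148954885 on the minus strand, and that of Adgrb3 at chr1:25829708-25829957 on the minus strand. Both Adgrg1 starts are on the plus strand, at chr8:94976859-94977108 and chr8:94984149-94984398, and the Adgrl1 stretch is at chr8:83899848-83900097 on the plus strand.
Adgrf4: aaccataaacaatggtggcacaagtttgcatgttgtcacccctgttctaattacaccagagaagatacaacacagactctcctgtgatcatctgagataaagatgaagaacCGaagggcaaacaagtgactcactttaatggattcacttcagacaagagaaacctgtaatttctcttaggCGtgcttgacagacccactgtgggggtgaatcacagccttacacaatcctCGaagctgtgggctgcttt
Adgrg1 first start: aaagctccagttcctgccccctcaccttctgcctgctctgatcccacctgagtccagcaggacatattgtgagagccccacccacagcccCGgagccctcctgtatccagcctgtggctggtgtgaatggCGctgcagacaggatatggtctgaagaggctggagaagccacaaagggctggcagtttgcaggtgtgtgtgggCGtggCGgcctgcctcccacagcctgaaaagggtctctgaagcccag
Adgrg1 second start: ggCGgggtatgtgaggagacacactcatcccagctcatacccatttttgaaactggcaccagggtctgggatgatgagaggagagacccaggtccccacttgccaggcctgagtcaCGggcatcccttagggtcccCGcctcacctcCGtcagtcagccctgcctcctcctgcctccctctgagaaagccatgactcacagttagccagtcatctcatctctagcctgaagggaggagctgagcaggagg
Adgrl2: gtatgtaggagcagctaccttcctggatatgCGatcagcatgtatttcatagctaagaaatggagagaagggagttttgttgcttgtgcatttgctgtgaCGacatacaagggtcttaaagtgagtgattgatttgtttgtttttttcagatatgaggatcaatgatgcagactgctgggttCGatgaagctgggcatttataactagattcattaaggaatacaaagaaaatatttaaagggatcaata
Adgrb3: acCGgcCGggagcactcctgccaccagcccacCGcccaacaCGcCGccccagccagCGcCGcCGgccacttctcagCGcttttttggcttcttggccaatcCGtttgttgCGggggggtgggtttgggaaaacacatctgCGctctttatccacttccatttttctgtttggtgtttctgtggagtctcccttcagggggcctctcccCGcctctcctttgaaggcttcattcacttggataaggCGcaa
Adgrl1: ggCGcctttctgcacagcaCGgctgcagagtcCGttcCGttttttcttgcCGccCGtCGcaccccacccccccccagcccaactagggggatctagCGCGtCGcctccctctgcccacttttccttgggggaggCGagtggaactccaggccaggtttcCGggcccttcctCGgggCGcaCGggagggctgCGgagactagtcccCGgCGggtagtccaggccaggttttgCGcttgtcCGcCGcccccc

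Adgrf4 had 3 CpGs in its stretch, Adgrl2 had 3 and each Adgrg1 start had 4, while Adgrb3 had 14 and Adgrl1 had 21. Of the stretches not printed, that of Adgrb2 had 35 CpGs and the 3 starts of Adgrl3 had 18 to 36. Over all 32851 starts of the table the median was 6 CpGs, 44.4% of stretches had at most 4 and 29.4% had at least 14. The stretches were searched on both strands for GGGCGG, the GC box, which 32.7% of all stretches hold, and for TATAAA, which 12.4% hold. Neither motif was found in the Adgrf4 stretch or in either Adgrg1 stretch, Adgrl2 held 1 TATAAA, and Adgrb3 and Adgrl1 held 2 GC boxes each. Of the other measured receptors, Adgrl3 held 1 TATAAA, at its second start, and 1 or 2 GC boxes at each start. Adgrb2 held 2 GC boxes. AAAGTTT, the core bound by the MYT zinc-finger family (4.2% of all stretches), and TTCAGCACC, a part of the element bound by REST (0.301%), were in none of the members' stretches. These matches describe the letters only.

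Signal is the deposited linear intensity of a transcript cluster, which carries no absolute scale, so levels of different genes were not ranked. The array medians lay between 183 and 206 and the summed signal between 9098056 and 12509077. Between 21.5% and 29.7% of clusters on an array had a signal below 30, and 3.54% to 7.02% were at or below 0. A difference is the PTB shRNA mean less the empty vector mean of log2(signal + 16), which understates the change of dim genes. They were fitted with limma over all clusters, and a gene is said to have risen or fallen when its adjusted p, corrected over all clusters, was below 0.05. Precision is limited by the 3 arrays in each group.

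The hairpin target was lower in every treated culture. Ptbp1 signals were 3387, 4203 and 4404 with empty vector against 1307, 1040 and 1957 with PTB shRNA, which differ by -1.51 on the log2 scale (standard error, SE, 0.25, adjusted p = 0.0402, limma; 0.0536 to 0.132 without any 1 array). Of 13 measured neuroblastoma and sympathetic neuron markers, 12 had signals above 100 on all arrays, among them Phox2a (1072 to 2367), Hand2 (1069 to 1894) and Chrna3 (836 to 1222). Th, the rate-limiting enzyme of catecholamine synthesis, was dim, at 21 to 62. Of these markers 1 rose and 0 fell, where 1.36% of all clusters rose and 3.37% fell. At an unadjusted p below 0.05, 3 were higher and 3 lower. Fits without any 1 array put 19.1% to 26.5% of all clusters below that cut, both directions together. The riser was Gata3, a transcription factor gene, at 144, 210 and 170 against 337, 326 and 321 (0.87, adjusted p = 0.0384, limma, 0.0577 with a pseudocount of 1 and 0.0722 to 0.133 without any 1 array).

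Adgrf4, also called GPR115 and described mainly in keratinocytes and enamel-forming cells, had signals of 28, 48 and 58 with empty vector against 261, 331 and 254 with PTB shRNA. The groups did not overlap, and the lowest PTB shRNA array was more than 4 times as bright as the brightest empty vector array. The means were 44.7 ± 15.3 and 282 ± 42.6 (SD, n = 3 arrays per group), a ratio of 6.31 and a log2 difference of 2.32 with an SE of 0.22. Of 9 measured epithelial and keratinocyte markers 0 passed the limma test and 0 had an unadjusted p below 0.05, and their summed signal was 143 to 233 with empty vector and 189 to 238 with PTB shRNA. Krt15 was at or below 0 on all 6 arrays, and Krt14 lay between -5 and 25 and Epcam between -9 and 7. Other markers were brighter, with Krt8 at 60 to 92 and Krt5 at 12 to 84. Cdh1 measured 45, 36 and 35 against 48, 46 and 49. It was 1 of the 9 markers higher without overlap, where 10.3% of all clusters were, and 0 of the 9 were lower without overlap, against 19%.

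Adgrg1, which binds collagen III and transglutaminase 2 and couples to G proteins of the G12/13 class, had signals of 52, 53 and 40 with empty vector against 295, 304 and 168 with PTB shRNA. The third PTB shRNA array was well below replicates 1 and 2 but still above every empty vector array. The means were 48.3 ± 7.23 and 255.7 ± 76.1, a ratio of 5.29 and a log2 difference of 2.04 with an SE of 0.24. Adgrf4 and Adgrg1 were dim with empty vector, so the size of their differences depended on the pseudocount. It was 2.68 and 2.34 with a pseudocount of 1, and 1.82 and 1.61 with a pseudocount of 50.

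**Figure D1:**
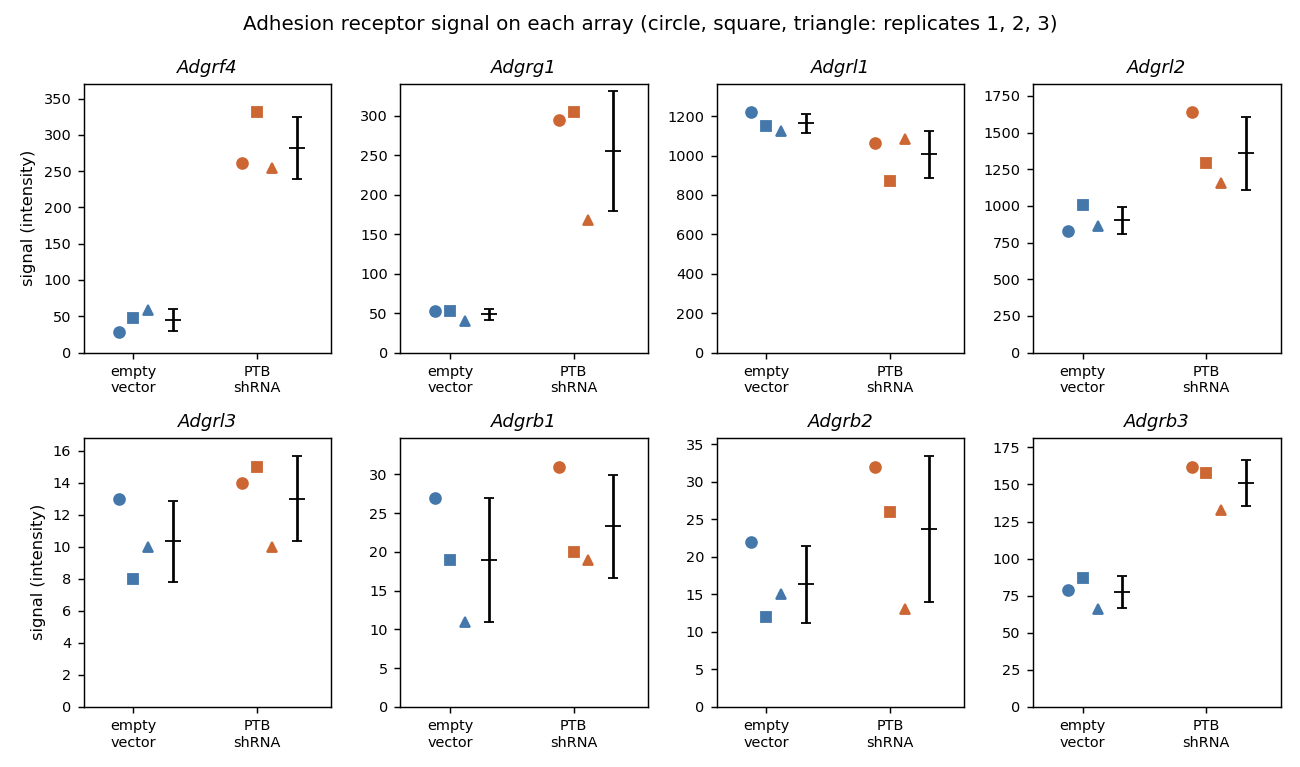
Signal (linear intensity, y axis from 0 in each panel) of the 8 measured adhesion receptors on each array, with empty vector in blue and PTB shRNA in orange; circles, squares and triangles are replicates 1, 2 and 3 and the black bars are means ± SD of 3 arrays. Adgrf4, Adgrg1, Adgrl2 and Adgrb3 were higher on all 3 PTB shRNA arrays than on any empty vector array.

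Among the brain angiogenesis inhibitor genes, Adgrb3 rose. It encodes a synaptic receptor that binds C1q-like proteins, and its signals were 79, 87 and 66 with empty vector against 162, 158 and 133 with PTB shRNA. The groups were separated by a gap wider than the range within either of them. The means were 77.3 ± 10.6 and 151 ± 15.7, a log2 difference of 0.84 with an SE of 0.13 (adjusted p = 0.0356, limma). The adjusted p was 0.0534 with a pseudocount of 1 and between 0.0548 and 0.123 when any 1 array was left out, while the difference itself stayed between 0.75 and 0.92.

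The other two genes of that branch were dim in both groups. Adgrb1, whose product takes part in the engulfment of apoptotic cells and in synapse formation, measured 27, 19 and 11 with empty vector against 31, 20 and 19 with PTB shRNA (log2 difference 0.18, 95% interval -0.35 to 0.71, adjusted p = 0.643). Adgrb2 measured 22, 12 and 15 against 32, 26 and 13 (0.28, -0.28 to 0.84, adjusted p = 0.502). In both genes the groups overlapped. Their mean signals, 21.2 and 20.0, lie among the dimmest 30% of clusters.

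The latrophilin genes gave different values. Adgrl2 measured 829, 1008 and 866 with empty vector against 1637, 1289 and 1155 with PTB shRNA. All PTB shRNA arrays were above all empty vector arrays, but the spread among the PTB shRNA arrays was wide. The log2 difference was 0.58 with an SE of 0.16 and did not pass (adjusted p = 0.0968, limma). It passed when dim clusters were left out (adjusted p = 0.0424 without the dimmest 30% of clusters) and with a trend and robust setting of the variance model (0.0326).

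Adgrl1 encodes the receptor first isolated as a binding protein of the spider toxin alpha-latrotoxin. Its signals were 1219, 1151 and 1125 with empty vector against 1065, 870 and 1086 with PTB shRNA. Every PTB shRNA array was below every empty vector array, by as little as 39 units between the nearest pair. The log2 difference was -0.21 (95% interval -0.49 to 0.07, adjusted p = 0.308), and quantile normalization of the arrays brought it to -0.03. Adgrl3, a latrophilin that binds FLRT3 and teneurins, measured 13, 8 and 10 against 14, 15 and 10, with overlapping groups (0.14, -0.15 to 0.43, adjusted p = 0.511). The difference between the changes of Adgrl2 and Adgrl1 was not tested.

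Adgrf4 and Adgrg1, whose rise led to the choice of the family, are left out of the counts that follow. Of the other 6 measured receptors 1 rose, Adgrb3, and 0 fell (0 lower at an unadjusted p below 0.05), where 1.36% of all clusters rose and 3.37% fell. Signal on every PTB shRNA array exceeded that on every empty vector array for 2 of these 6, Adgrb3 and Adgrl2, against 10.3% of all clusters, and the reverse held for 1, against 19% of all clusters. The median log2 difference of the 6 was 0.23, and 0.03 after quantile normalization, where the median of all clusters was 0 both ways. Without any 1 of the 6 arrays no cluster passed the limma test, and 2 or 3 of the 6 receptors then had an unadjusted p below 0.05, as did 19.1% to 26.5% of all clusters.

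Differences depended on brightness across the array, with a median of 0.22 in clusters with a mean signal between 37.7 and 84.3 and -0.25 in the brightest 10%. Adgrf4, Adgrg1 and Adgrb3 had mean signals of 163.3, 152 and 114.2 and lay in the 10% of clusters with means of 84.5 to 200. In that band the median difference was 0.08, and 3.2% of clusters rose. Adgrl1 and Adgrl2, with means of 1086 and 1131, lay in the band from 906 to 1550, with a median of -0.17, where 0.755% rose. The dim Adgrl3 (difference 0.14) lay in the band from 8.83 to 19.8, with a median of 0.15. Adgrb1 (0.18) and Adgrb2 (0.28) lay in the band from 19.8 to 37.7, with a median of 0.21.

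**Figure D2:**
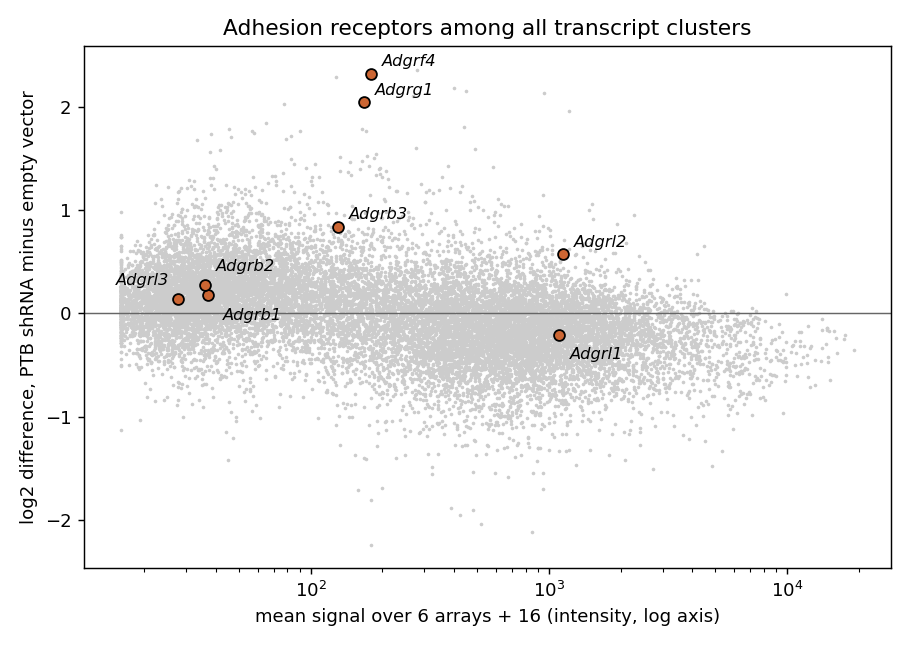
Log2 difference between PTB shRNA and empty vector (y axis) against mean signal over the 6 arrays plus 16 (x axis, log scale) for all 17213 transcript clusters in grey and the 8 receptors in orange. Adgrf4 (2.32) and Adgrg1 (2.04), which were chosen for their position, lie at the upper edge, Adgrb3 (0.84) and Adgrl2 (0.58) above most clusters of like brightness, and the other 4 within the bulk.

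The third PTB shRNA array gave the lowest of the 3 PTB shRNA signals for 7 of the 8 receptors, all but Adgrl1. Among these, Adgrl3 (14, 15 and 10), Adgrb1 (31, 20 and 19) and Adgrb2 (32, 26 and 13) were dim, so their order rests on small gaps. Over all clusters, the third array was the lowest in 37.2%, a share not split by brightness. That array also had the most clusters at or below 0 of the 3, 5.53% against 4.01% and 3.54%. Residual Ptbp1 signal was highest on that array, at 1957 against 1307 and 1040. With 3 arrays, whether the receptors follow the residual Ptbp1 signal was not tested.

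The genes whose signals followed Adgrf4 most closely over the 6 arrays were St18 (Pearson r = 0.998), a zinc-finger transcription factor, Syne2 (0.998), which encodes the nuclear envelope protein nesprin-2, Lmo3 (0.997), a LIM-only cofactor, Dusp8 (0.996), a MAP kinase phosphatase, and Fgd4 (0.995), an exchange factor for Cdc42. The signals of St18 were 56, 73 and 99 with empty vector against 422, 521 and 406 with PTB shRNA, so that like Adgrf4 it was lowest on the first empty vector array and highest on the second PTB shRNA array. Those following Adgrg1 were Ppm1e (0.999), a phosphatase, Sema5a (0.999), a semaphorin, Ghr (0.998), the growth hormone receptor, Itga7 (0.998), an integrin subunit, and Asah2 (0.997), a ceramidase. Sema5a measured 97, 96 and 87 against 245, 254 and 186, low on the third PTB shRNA array as Adgrg1 was. The correlation of Adgrf4 with Adgrg1 was 0.946. These are the highest of 9982 correlations of log2 values over arrays that fall into 2 groups, so any gene that separates the groups scores high, and they are a description without a test.

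Among the other adhesion receptors, 15 of 21 had a row. Of these 1 rose and 0 fell, against 1.36% and 3.37% of all clusters. At an unadjusted p below 0.05, 4 were higher and 0 lower. The share of all clusters at that unadjusted cut is not given for the full set of arrays. Fits that left out 1 array put 1001 to 1721 of the 17213 clusters higher and 2008 to 3018 lower at that cut. Signal on every PTB shRNA array exceeded that on every empty vector array for 4 of the 15, against 10.3% of all clusters. The riser, Celsr2, is a seven-pass cadherin of the planar cell polarity pathway. Its signals were 147, 159 and 138 with empty vector against 252, 212 and 255 with PTB shRNA, without overlap, a log2 difference of 0.64 with an SE of 0.11 (adjusted p = 0.0399, limma). A second Celsr2 row gave 0.61 (adjusted p = 0.0384). The call ended with a pseudocount of 1 (adjusted p = 0.0571) and without any 1 array (0.0767 to 0.121).

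Its relatives Celsr3 and Celsr1 did not pass. Celsr3 measured 472, 498 and 483 against 634, 590 and 673, without overlap (0.37, adjusted p = 0.0686, and 0.0255 after quantile normalization). Celsr1 was dim, at 23, 18 and 27 against 47, 32 and 29 (0.42, adjusted p = 0.191). Adgrv1, the very large receptor of hair cell links, measured 15, 13 and 16 against 27, 24 and 20 (0.37, adjusted p = 0.0932).

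Adgra1 (0.893) and Adgra2 (0.302), the latter a co-receptor for WNT7 in brain vessels, had adjusted p-values far from the threshold, with signals of 160 to 229 and 27 to 47. Adgrg3 lies beside Adgrg1 on chromosome 8 in RefSeq and measured 14, 25 and 13 against 36, 29 and 19, with overlapping groups (0.40, adjusted p = 0.296). The median difference of these 15 receptors was 0.26, and 0.09 after quantile normalization. Of the genes directly beside Adgrf4 on chromosome 17, Opn5 was measured, at 48, 17 and 37 against 104, 45 and 38. Its groups overlapped (log2 difference 0.607). Within 3 genes of Adgrf4, Mmut (-0.268), Cd2ap (-0.082) and Tnfrsf21 (0.127) were also measured.

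**Figure D3:**
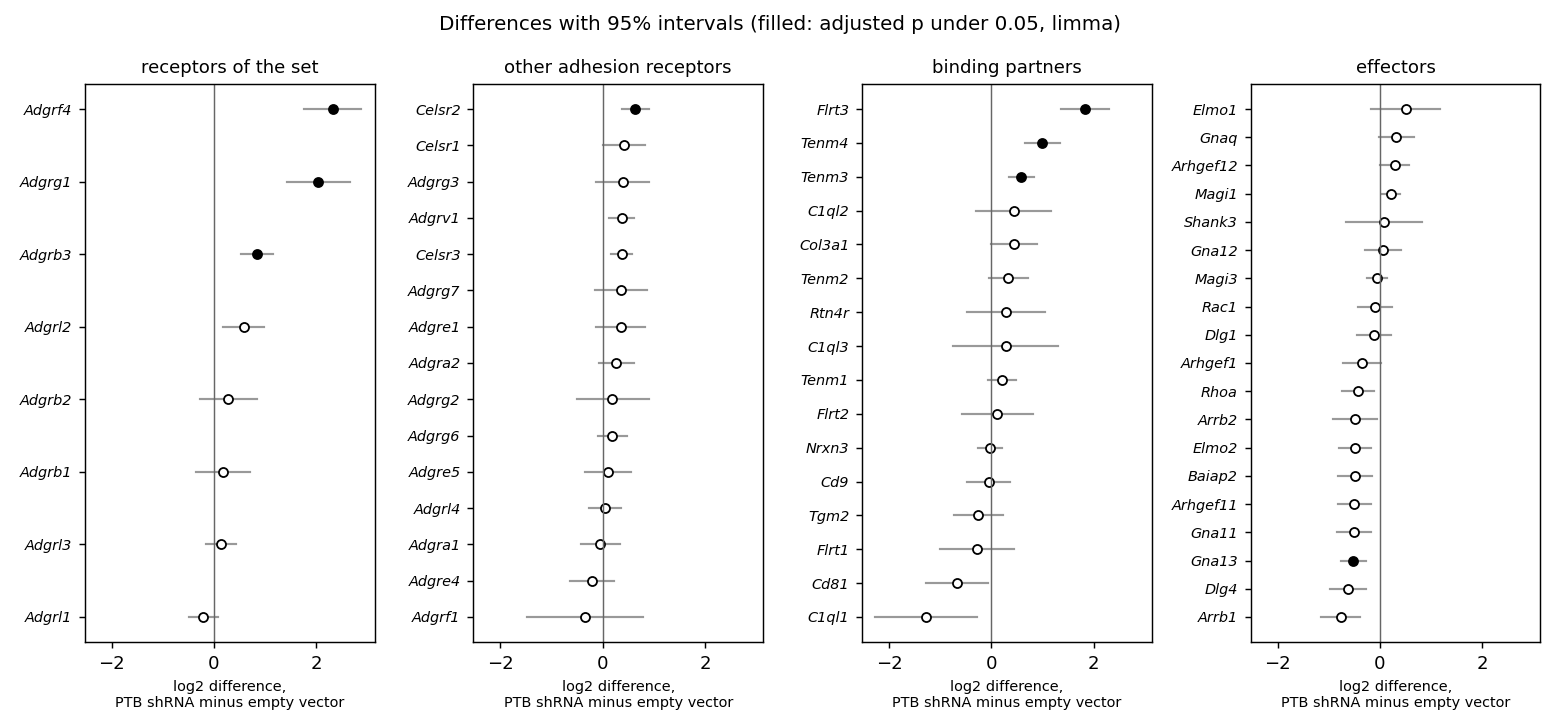
Log2 difference, PTB shRNA minus empty vector (x axis), for the 8 receptors, 15 other adhesion receptors, 16 binding partners and 19 effectors; points are limma estimates from 3 arrays per group, lines their 95% intervals, and filled points passed at an adjusted p below 0.05. The filled points of Adgrf4 and Adgrg1 belong to genes chosen for that difference, and Gna13 is the lone filled point below 0.

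Binding partners of the receptors were measured for 16 of 19 genes, of which 3 rose and 0 fell, against 1.36% and 3.37% of all clusters. At an unadjusted p below 0.05, 3 were higher and 2 lower. With any 1 array left out, 19.1% to 26.5% of all clusters were below that cut, both directions together. All 3 genes that rose are ligands of latrophilins, a kind that makes up much of this list (teneurins, FLRT proteins and neurexins). Flrt3, a leucine-rich repeat adhesion protein, had signals of 7, 12 and 19 with empty vector against 96, 71 and 90 with PTB shRNA, with a log2 difference of 1.84 (adjusted p = 0.0254, limma). It had been among the largest increases in these data and is not independent evidence of a direction, and without it 2 of 15 partners rose. Tenm4, a teneurin, measured 213, 278 and 206 against 519, 481 and 435, with a difference of 1.00 and an SE of 0.14 (adjusted p = 0.0342). Tenm3, another teneurin, measured 1383, 1467 and 1635 against 2390, 2111 and 2259, with a difference of 0.59 and an SE of 0.10 (adjusted p = 0.0412).

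In all 3 genes the lowest PTB shRNA array was above the highest empty vector array. A pseudocount of 1 ended the calls of Tenm4 (adjusted p = 0.0505) and Tenm3 (0.0605) but not that of Flrt3 (0.0483), and leaving out any 1 array ended all 3, with adjusted p between 0.0536 and 0.134. The remaining latrophilin ligands did not pass. Tenm2 measured 71, 72 and 71 against 119, 76 and 90 (0.33, adjusted p = 0.255), while Tenm1 (1 to 7), Flrt2 (2 to 15) and Nrxn3 (10 to 14) were dim on all arrays. Flrt1 measured 117, 191 and 88 against 92, 85 and 131, with overlapping groups and a difference below 0 (-0.28, adjusted p = 0.602). These 5 genes were picked out after their values were seen.

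The C1q-like ligands of Adgrb3 gave no call. C1ql1 measured 664, 679 and 888 with empty vector against 254, 183 and 545 with PTB shRNA, lower on every PTB shRNA array but with a wide spread among them (log2 difference -1.28, SE 0.40, adjusted p = 0.122, and 0.0279 without the dimmest 30% of clusters). C1ql2 measured 132, 104 and 127 against 265, 156 and 114 (0.44, adjusted p = 0.417).

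Partners of Adgrg1 did not pass either. Col3a1, the collagen III gene, measured 77, 55 and 59 against 117, 85 and 76 (0.44, adjusted p = 0.206). Cd81, a tetraspanin that forms complexes with Adgrg1, measured 1506, 1263 and 1083 against 1107, 680 and 658 (-0.67, adjusted p = 0.159). In both genes the groups overlapped.

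**Figure D4:**
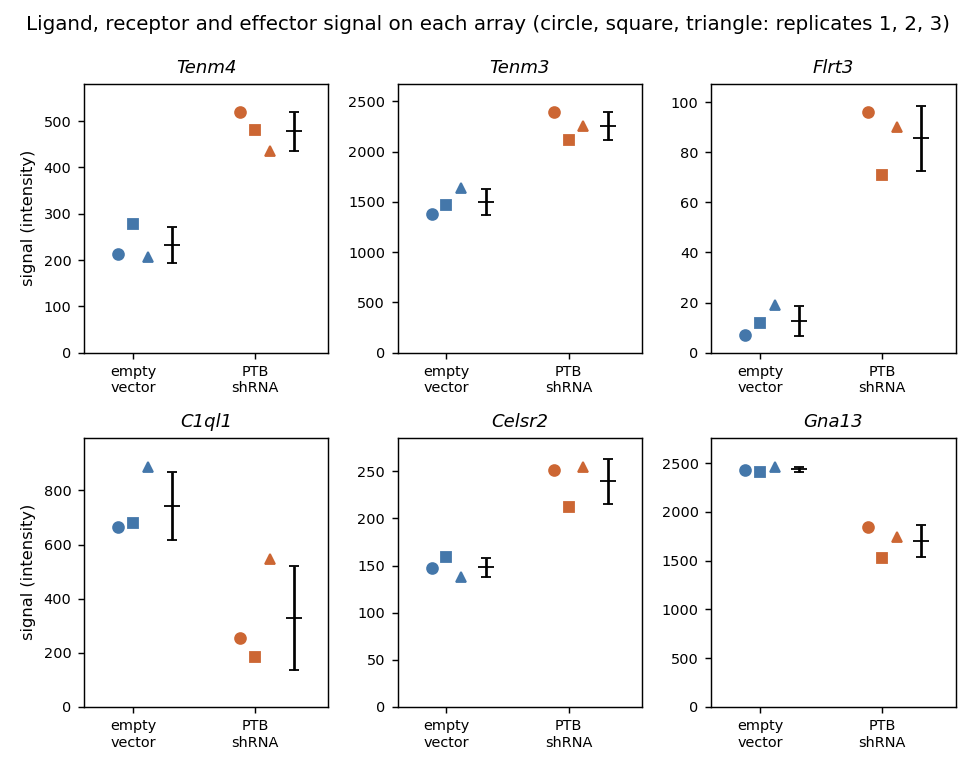
Signal (linear intensity, y axis from 0 in each panel) on each array for the latrophilin ligands Tenm4, Tenm3 and Flrt3, the C1q-like ligand C1ql1, the receptor Celsr2 and the G protein gene Gna13, with empty vector in blue and PTB shRNA in orange; black bars are means ± SD of 3 arrays. Groups are separated in all 6 genes, upward in Tenm4, Tenm3, Flrt3 and Celsr2 and downward in C1ql1 and Gna13, where C1ql1 did not pass the test.

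Of the genes that act below the receptors, 19 of 23 were measured. Of these 0 rose and 1 fell, against 1.36% and 3.37% of all clusters at the same adjusted threshold. At an unadjusted p below 0.05, 2 were higher and 9 lower. The share of all clusters at that unadjusted cut is not given for the 6 arrays. Without any 1 array, 1001 to 1721 of the 17213 clusters were higher and 2008 to 3018 lower at that cut. Gna13, a G protein alpha subunit of the class that Adgrg1 couples to, fell from 2433, 2412 and 2464 to 1846, 1523 and 1738, a log2 difference of -0.52 with an SE of 0.10 (adjusted p = 0.0492, limma). This call was at the threshold and did not hold after quantile normalization (-0.30, adjusted p = 0.11), after median centring (0.0501), with a pseudocount of 1 (0.0703) or without any 1 array (0.0821 to 0.145). Its relative Gna12 measured 1076, 1041 and 984 against 1022, 935 and 1310 (0.06, adjusted p = 0.836), a gene named after its values were seen.

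Arrb1, the beta-arrestin 1 gene, measured 809, 648 and 748 against 430, 352 and 494 (-0.77, adjusted p = 0.0557, 0.042 after median centring of the arrays). Dlg4, which encodes the synaptic scaffold PSD-95, measured 1109, 964 and 857 against 674, 538 and 660 (-0.63, adjusted p = 0.0674). Gna11 differed by -0.51 (adjusted p = 0.0892) and Arhgef11, an exchange factor that G12/13 proteins activate, by -0.50 (adjusted p = 0.086). In these 4 genes every PTB shRNA array was below every empty vector array, as in 9 of the 19 effectors, against 19% of all clusters. The reverse held for 3 of the 19, Gnaq, Arhgef12 and Magi1, against 10.3% of all clusters. The median difference of the effectors was -0.35 and -0.12 after quantile normalization, and 17 of the 19 were brighter than the median cluster, where differences below 0 were common.

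Of 8 fibroblast markers 1 rose, the growth factor receptor gene Pdgfra, from 43, 33 and 32 to 123, 103 and 80 (log2 difference 1.17, adjusted p = 0.0342, limma, 0.0505 with a pseudocount of 1 and 0.0536 to 0.121 without any 1 array), and their summed signal was 237 to 297 with empty vector and 302 to 488 with PTB shRNA. Of 10 measured leukocyte markers 0 passed and 2 had an unadjusted p below 0.05 (summed signal 67 to 141 and 125 to 209). Of 7 glial markers 0 passed and 0 were below 0.05 unadjusted (346 to 443 and 462 to 640), and of 7 endothelial markers 0 passed and 1 was (436 to 601 and 284 to 432). Over all clusters 1.36% rose and 3.37% fell. At an unadjusted p below 0.05, 2 of the fibroblast markers were higher and 0 lower. Leaving out any 1 array, 19.1% to 26.5% of all clusters were below that cut. Col1a1 lay between 39 and 77 and Ptprc between 6 and 14 on all arrays. Some markers were brighter, such as the glial Olig2 at 114 to 218 and the endothelial Egfl7 at 150 to 349. The part of these marker differences in the receptor values was not tested.

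Adgrf4, Adgrg1, Adgrb3 and Adgrl2 kept their direction after quantile normalization and after median centring. After quantile normalization the log2 differences were 2.26 for Adgrf4, 1.99 for Adgrg1, 0.73 for Adgrb3 (adjusted p = 0.0304) and 0.77 for Adgrl2 (adjusted p = 0.0533). The dim Adgrl3 and Adgrb1 turned from 0.14 and 0.18 to -0.02 and -0.03.

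**Figure D5:**
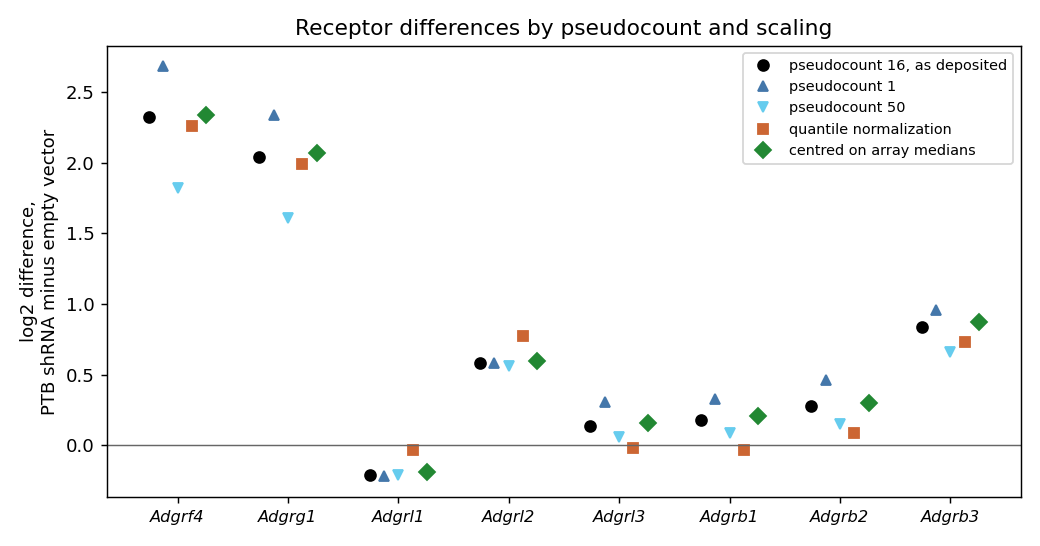
Log2 difference, PTB shRNA minus empty vector (y axis), of the 8 receptors as deposited with a pseudocount of 16 and with pseudocounts of 1 and 50, quantile normalization or centring on array medians. Adgrf4 spans 1.82 to 2.68 and Adgrg1 1.61 to 2.34 with the pseudocount, while Adgrl1 and Adgrl2 move with the scaling instead.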

How the data were processed

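Total RNA of the 6 cultures was depleted of ribosomal RNA and 1 µg was labelled, per the labels' protocols. The deposited intensity values are gene-level signals in whole numbers. The submitters' processing notes name GCOS 1.3, and how probes were summarised, corrected for background and scaled was not given in the sources used here. As deposited, the gene-level values were not quantile-normalized across these clusters, since array totals and quartiles differ. Whether quantile normalization was used at an earlier step is not known.

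The platform annotation supplied gene names (15146 of 17213 clusters had 1 symbol, 1278 several, 789 none). All 109 listed genes with a row matched RefSeq by Entrez identifier. Negative values were set to 0 and log2(signal + 16) was fitted with limma 3.58.1 in R 4.3.3 over the 6 arrays, with no block and with Benjamini-Hochberg adjustment over all clusters. Plots used matplotlib 3.10.9. An exact test of 3 arrays against 3 cannot go below 0.1.

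The members and gene lists were chosen with earlier results of these data known. Named genes were the members, Ptbp1, list members past the threshold, the next 4 per list by absolute difference, the 4 brightest other receptors, and for Adgrf4 and Adgrg1 the 5 most correlated named genes with a mean signal of at least 50. Other genes were named after their values were seen. Tested on simulated data (17213 clusters, 200 changed), the fit recovered 56% of the changes of 1 log2 unit and 84% of those of 2, with 1 false call. Alternatives were quantile normalization, median centring, pseudocounts of 1 and 50, dropping the dimmest 30% or 50% of clusters, trend and robust eBayes, array weights, a block on replicate number and dropping each array in turn.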

Additional observations from a re-analysis of the deposited data

How the results depend on the processing

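With Adgrf4 and Adgrg1, which were chosen for it, 3 of the measured receptors rose, against 1 of the 2 left without the dimmest 50% of clusters (Adgrf4, Adgrg1 and Adgrb3 are removed by that filter), 0 with the replicate block and 0 without any 1 array. Over all clusters 234 rose and 580 fell. Quantile normalization gave 505 higher, centring 376, trend and robust eBayes 463 higher and 1502 lower, and array weights 445 and 1180. A pseudocount of 1 gave 84 and 132, and one of 50 gave 930 lower. Leaving out the dimmest 30% gave 499 and 1386, and the dimmest 50% 386 and 2100. Without any 1 array 0 clusters passed in either direction (smallest adjusted p 0.0536 to 0.112), with 1001 to 1721 higher and 2008 to 3018 lower at an unadjusted p below 0.05.

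Among other adhesion receptors 1 rose, against 2 with quantile normalization or a pseudocount of 50 and 0 with a pseudocount of 1. Of the ligands 3 rose, against 1 with a pseudocount of 1. Ligands that fell numbered 0, against 1 without the dimmest 30% or with trend and robust eBayes and 2 without the dimmest 50%. Effectors had 0 higher and 1 lower, against 1 higher and 0 lower after quantile normalization. Lower effectors numbered 0 with a pseudocount of 1, 2 with one of 50, 6 without the dimmest 30% or with trend and robust eBayes, 9 without the dimmest 50% and 4 with array weights. With the replicate block or without any 1 array, each of these lists had 0 calls in the main direction. The causes of these changes were not tested, apart from fewer clusters or arrays where some were left out.

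Directions turned for Adgrl3 (-0.024) and Adgrb1 (-0.028) after quantile normalization, and for Adgra1 without empty vector array 1 (0.01), empty vector array 2 (0.047) or PTB shRNA array 3 (0.006), within a range of -0.192 to 0.047 without any 1 array. Gna12 turned without PTB shRNA array 3 and ranged from -0.078 to 0.161 without any 1 array. Listed genes not named with a difference were not followed here. Same-numbered arrays deviated from their group means with correlations of 0.232, 0.0547 and 0.258, all above 0. The labels tie no replicate number to a batch, and the main fit did not take the numbers as pairs. All 6 arrays had their best match in the other group under their own number, a hint of pairing from the data only. The replicate block gave 0 clusters called in either direction, with an adjusted p of 0.084 for Adgrb3. The mean over both Celsr2 rows kept that call, and no other listed receptor had a second row.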
